A study of Mus musculus with 6 samples.

Results

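Cpt1a and its companions in fatty acid oxidation were followed in CD4+ T cells from the spleens of colitic mice. The set held 9 genes, taken by gene symbol from a table of 54532 genes. They were the carnitine acyltransferases Cpt1a, Cpt2 and Crat, the acyl-CoA dehydrogenases Acadvl, Acadl and Acadm, the trifunctional protein subunits Hadha and Hadhb, and the nuclear receptor Ppard. In 3 libraries the mice had received Akkermansia muciniphila each day, and in the other 3 they had received phosphate-buffered saline (PBS). All were wild-type C57BL/6J animals whose colitis came from dextran sulfate sodium (DSS) added to their drinking water. Akkermansia muciniphila is a mucin-degrading gut bacterium, and DSS injures the colonic epithelium. Mice without colitis were not part of the comparison, and the labels give neither age nor how the T cells were isolated, nor whether animals were pooled. The libraries of a group are described as biological replicates, and p-values set the difference between groups against the spread between these libraries.

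Long-chain fatty acids cannot enter the mitochondrial matrix as CoA esters. CPT1 on the outer mitochondrial membrane moves the acyl chain onto carnitine, the carrier SLC25A20 brings the acylcarnitine across the inner membrane, and CPT2 returns the chain to CoA inside. Acyl-CoA dehydrogenases then make the first oxidation, each for its own range of chain lengths, and the trifunctional protein completes the cycle for long chains. In T cells, fatty acid oxidation is best known from memory and regulatory cells, while freshly activated effector cells rely more on glycolysis. CPT1A, the isoform of liver and lymphocytes, is inhibited by malonyl-CoA, the product of acetyl-CoA carboxylase.

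Libraries held 15032257 to 15620607 counts with Akkermansia and 15125188 to 16677923 counts with PBS. The PBS libraries differed more among themselves than the Akkermansia libraries did, with pairs varying 15.02 to 20.3 times as much as counting noise, against 4.53 to 6.29 times for the Akkermansia pairs. PBS 2 stood apart from PBS 1 and PBS 3 on the second principal component of all tested genes (-37.1, against 13.4 and 27.7), which held 20.7% of the variance. All 9 genes passed the filter on low counts and were among the 15138 genes tested. The descriptions name CD4 for the libraries numbered 1, CD5 for those numbered 2 and CD6 for those numbered 3, whereas the cell type entry is CD4+ T cells throughout. Of 8 CD4 T cell markers 4 were higher, 1 was lower and 3 did not pass the test with Akkermansia. Over all genes tested, 7.32% were called higher and 8.28% lower. The summed level of the 8 markers was 4906 to 5212 CPM (counts scaled to library size) with Akkermansia and 4659 to 4835 CPM with PBS.

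Cpt1a was the member with the largest difference. Its level was 64.4, 62.7 and 57.96 CPM in the Akkermansia libraries, against 149, 113 and 150 CPM in the PBS libraries. The groups did not overlap, and PBS 2 was the lowest of the PBS libraries. The log2 fold change was -1.15 ± 0.11 (SE), with a 95% interval from -1.39 to -0.92 (edgeR quasi-likelihood F test, two-sided, Benjamini-Hochberg adjusted p = 7.65e-05 over all genes). The fitted level fell by 55.1%. Without PBS 2 the log2 fold change was -1.28 (edgeR adjusted p = 2.09e-07). A change of at least this size was seen in 3.52% of all genes tested. Cpt1a kept its call in each of 15 other settings of tool, filter, scaling and libraries, with log2 fold changes between -1.28 and -1.08. Adjusted p ran up to 0.00604 over these settings. The lowest values were 8.17e-39 in edgeR with no filter on low counts and 1.33e-20 in DESeq2. In bulk libraries, fewer cells that express a gene and less of its RNA per cell cannot be told apart.

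Because Cpt1a and Hadhb carry the calls among the members, the 250 bases before their RefSeq starts are shown, on the + strand of build GRCm38.p6. The Cpt1a stretch is chr19:3323051-3323300 and the Hadhb stretch is chr5:30155003-30155252. The authors' counts were made on another build, GRCm39, so these positions apply to RefSeq alone. Capitals mark matches on either strand to 3 motifs, AGGTCA (the half-site of many nuclear receptors), GGGCGG (the GC box) and CCAAT.
Cpt1a: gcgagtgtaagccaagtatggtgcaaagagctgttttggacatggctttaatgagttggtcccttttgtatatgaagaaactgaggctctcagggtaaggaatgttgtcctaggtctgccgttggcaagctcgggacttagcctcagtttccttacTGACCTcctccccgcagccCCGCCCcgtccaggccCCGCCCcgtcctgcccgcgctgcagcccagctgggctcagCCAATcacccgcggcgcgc
Hadhb: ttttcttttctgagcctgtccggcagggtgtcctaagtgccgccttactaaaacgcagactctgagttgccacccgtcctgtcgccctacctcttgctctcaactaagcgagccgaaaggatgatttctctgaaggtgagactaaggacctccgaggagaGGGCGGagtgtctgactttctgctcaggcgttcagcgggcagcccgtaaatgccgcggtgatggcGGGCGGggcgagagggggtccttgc

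In the Cpt1a stretch the capitals are, from left to right, 1 half-site on the reverse strand (TGACCT), 2 GC boxes on the reverse strand (CCGCCC) and 1 CCAAT box. The Hadhb stretch holds 2 GC boxes and neither of the other motifs. It also lies before Hadha, which is read in the opposite direction from a start 272 bases away, so that the 300-base windows around both starts share 228 bases. Promoter windows were found for 8 of 9 members, and none was found for Crat. Counting the whole window of 250 bases before to 50 after the start, a half-site was present for Cpt1a, Acadvl and Acadm, and in 16.3% of 32851 windows of the same length. A direct repeat of AGGTCA with any 1 base between the copies is the form bound by PPAR with RXR. It was in no member's window and in 0.0396% of all windows. With an exact match this rare, its absence from so few windows says nothing about PPAR binding, which was not tested. GC boxes were in the windows of Cpt1a, Cpt2, Acadl, Hadha, Hadhb and Ppard, and in 35.7% of all windows, and CCAAT was in those of Cpt1a and Ppard, and in 37.4% of all windows. The motifs do not overlap each other in the printed stretches. By definition, the direct-repeat motif contains the half-site sequence, but no half-site in a member's window was part of such a repeat.

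**Figure D1:**
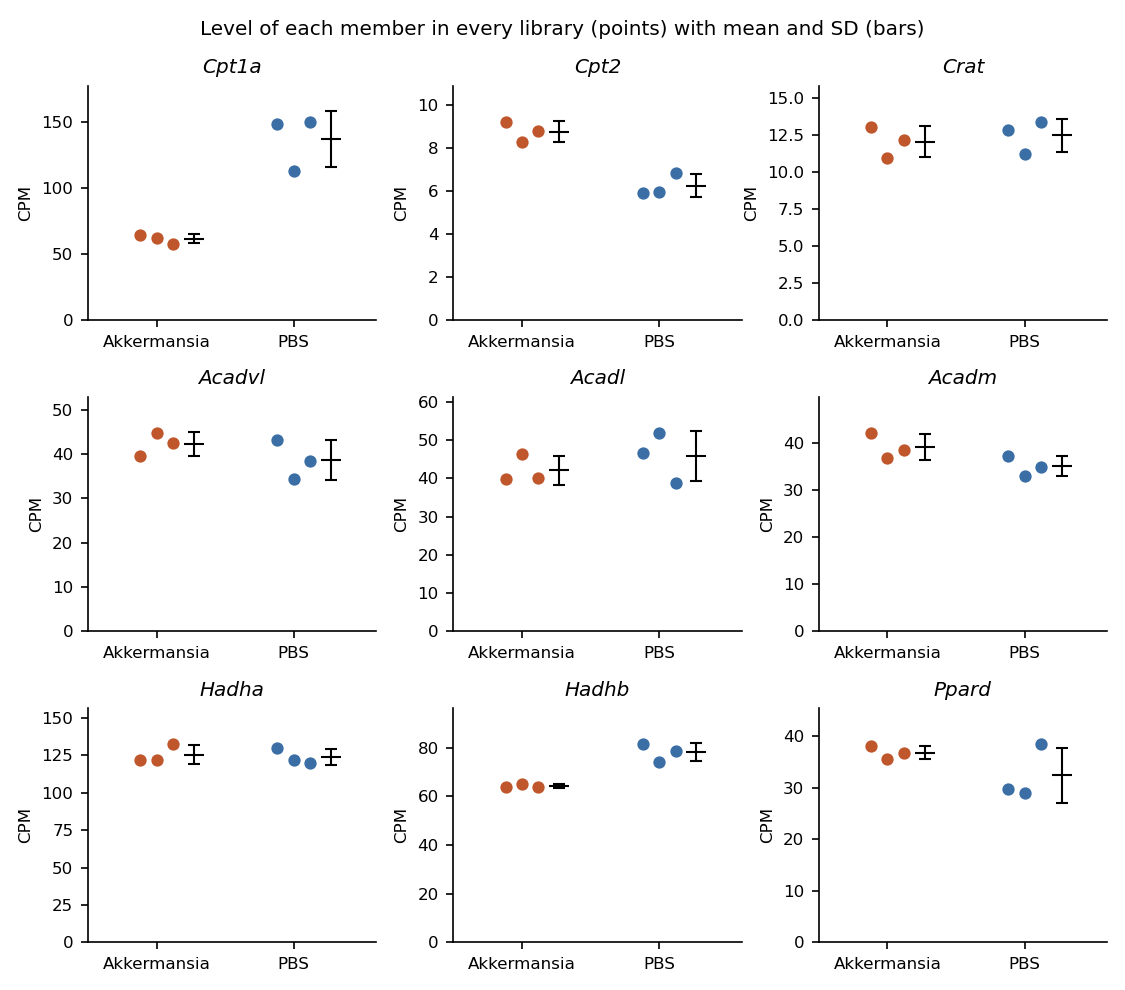
Each panel shows one member, with its level in CPM on a vertical axis that starts at 0, a point for every library, and the mean with SD beside the points (n = 3 each). Cpt1a and Hadhb are lower and Cpt2 is higher in all 3 Akkermansia libraries than in any PBS library, while the groups of the other 6 genes overlap.

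Within the set, 2 of 9 genes were lower with Akkermansia, Cpt1a and Hadhb, where 8.28% of all genes tested were called lower and 7.32% higher (15.6% in both directions). The members were chosen with earlier results of these data known, so this is no neutral comparison. Hadhb kept its call in 2 of 6 fits without 1 library. No member was called higher by edgeR, DESeq2 or limma-voom; 1 was higher at an unadjusted p under 0.05, Cpt2. The median log2 fold change of the set was 0.02, against -0.0081 over all genes tested. Groups did not overlap in 3 of the 9 genes, against 34.9% of all genes tested.

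**Figure D2:**
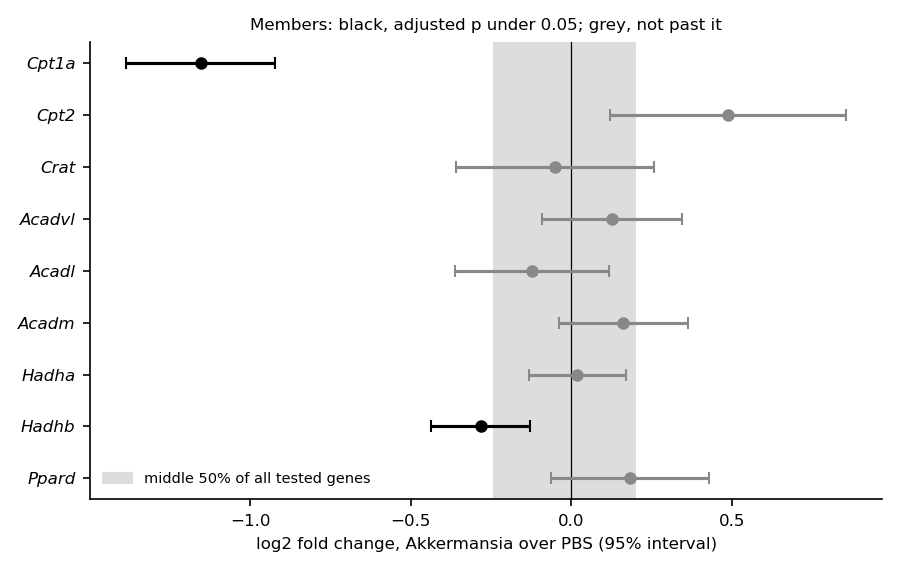
Points are log2 fold changes of Akkermansia over PBS with 95% intervals, in black where the adjusted p was under 0.05, and the grey band holds the middle 50% of all genes tested. Cpt1a, at -1.15, lies apart from the other 8 members, whose values run from -0.28 to 0.49.

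Among the carnitine acyltransferases, Cpt2, which acts on the inner membrane directly after the carrier, had the opposite sign to Cpt1a. It measured 9.23, 8.28 and 8.81 CPM with Akkermansia, against 5.92, 5.97 and 6.87 CPM with PBS. The groups did not overlap, but the log2 fold change of 0.49 ± 0.17 (SE) did not pass the edgeR test (95% interval 0.12 to 0.86, adjusted p = 0.0713). It did pass with limma on log2(FPKM + 1) and log2(FPKM + 0.1), where the values were 0.38 and 0.48 (adjusted p = 0.0447 and 0.0463), and in none of the other 13 settings, where the adjusted p reached 0.197. These rest on 124 to 146 reads per library with Akkermansia and 91 to 112 with PBS, the fewest of any member.

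Crat, which moves acetyl and other short acyl groups between CoA and carnitine, measured 10.9 to 13.0 CPM with Akkermansia against 11.2 to 13.4 CPM with PBS. Its log2 fold change was -0.05, with a 95% interval from -0.36 to 0.26 (edgeR adjusted p = 0.851). The ranges overlap almost entirely.

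The acyl-CoA dehydrogenases make the first oxidation for very long (Acadvl), long (Acadl) and medium (Acadm) chains, and none of these 3 passed the test. Acadvl measured 39.6 to 44.8 CPM with Akkermansia against 34.3 to 43.3 CPM with PBS (log2 fold change 0.13, 95% interval -0.09 to 0.34, edgeR adjusted p = 0.443). Acadl measured 39.8 to 46.3 CPM with Akkermansia against 38.9 to 51.9 CPM with PBS (log2 fold change -0.12, 95% interval -0.36 to 0.12, edgeR adjusted p = 0.508). Acadm measured 37.0 to 42.2 CPM with Akkermansia against 33.1 to 37.3 CPM with PBS (log2 fold change 0.16, 95% interval -0.04 to 0.36, edgeR adjusted p = 0.272). The groups overlap for each, in Acadm by the lowest Akkermansia library and the highest PBS library alone. The intervals leave out a change of the size seen in Cpt1a, in either direction.

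The trifunctional protein is built of alpha subunits, encoded by Hadha, and beta subunits, encoded by Hadhb. Hadhb, which carries the thiolase activity, measured 63.9, 65.3 and 63.7 CPM with Akkermansia, against 81.7, 74.3 and 78.6 CPM with PBS. The groups did not overlap, and the log2 fold change was -0.28 ± 0.07 (SE), with a 95% interval from -0.44 to -0.13 (edgeR adjusted p = 0.0191). The call was lost without any 1 of the Akkermansia libraries or PBS 1 (adjusted p = 0.0726, 0.0718, 0.0795 and 0.0628), while the value stayed between -0.32 and -0.26 in fits without 1 library.

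Hadha, which carries the hydratase and dehydrogenase activities, measured 122, 122 and 133 CPM with Akkermansia, against 130, 122 and 120 CPM with PBS. These ranges overlap, and the log2 fold change was 0.02 with a 95% interval from -0.13 to 0.17 (edgeR adjusted p = 0.889). The ratio of Hadha to Hadhb in FPKM (counts per length and depth) was 1.44, 1.41 and 1.58 with Akkermansia, against 1.20, 1.24 and 1.15 with PBS. All 3 Akkermansia ratios were above all 3 PBS ratios, on average 1.23-fold. The exact permutation test, two-sided, gave p = 0.1, which is the smallest that 3 libraries against 3 allow (0.1333 adjusted over 4 ratios tested), so that this test cannot pass the threshold with these libraries.

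Ppard encodes PPAR delta, a fatty acid-sensing nuclear receptor whose known targets include Cpt1a. It measured 38.2, 35.6 and 36.7 CPM with Akkermansia, against 29.8, 29.0 and 38.6 CPM with PBS. PBS 3 lay above all Akkermansia libraries, and the other PBS libraries lay below them. The log2 fold change was 0.18 ± 0.11 (SE, 95% interval -0.06 to 0.43, edgeR adjusted p = 0.311). Without PBS 3 it was 0.33 and passed the test (adjusted p = 0.0403, against up to 0.607 in the other settings).

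Levels of different genes can be compared only per length. With PBS, Cpt1a had the highest FPKM of the 9, 31.7 ± 4.70 (SD, n = 3), ahead of Acadl at 22.7 ± 3.40, and their ranges did not overlap. With Akkermansia, Cpt1a averaged 14.4 ± 0.724 FPKM (SD, n = 3) and stood behind Acadl (21.0 ± 1.80), Acadvl (15.8 ± 0.981) and Hadha (14.4 ± 0.789), and its range overlapped those of Acadvl and Hadha. In Akkermansia 1 Cpt1a lay above both, and in Akkermansia 2 it lay above Hadha. Hadhb and Acadm followed with 9.76 and 10.04 FPKM with Akkermansia and 11.8 and 8.91 FPKM with PBS. Their ranges overlapped with Akkermansia and not with PBS. Ppard, Cpt2 and Crat were the lowest, with 4.91, 3.67 and 2.23 FPKM with Akkermansia and 4.29, 2.60 and 2.30 FPKM with PBS. Cpt2 lay above Crat without overlap with Akkermansia, and the ranges of this pair overlapped with PBS.

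The changed place of Cpt1a shows in the balance of the 8 enzymes. Cpt1a made up 16.6, 15.7 and 14.99% of their summed FPKM with Akkermansia, against 30.0, 25.4 and 32.2% with PBS. The other 7 enzymes together had 76.9 ± 1.70 FPKM with Akkermansia and 76.7 ± 3.53 FPKM with PBS (SD, n = 3), and these ranges overlap. The ratio of Cpt1a to Cpt2 was 3.89, 4.21 and 3.65 with Akkermansia, against 14.0, 10.5 and 12.2 with PBS. Neither the share nor this ratio overlapped between groups (exact permutation test, two-sided, p = 0.1 for each, the smallest possible, and 0.1333 adjusted over 4 ratios). The fourth ratio, Acadl to Acadvl, averaged 1.33 ± 0.0596 with Akkermansia and 1.61 ± 0.366 with PBS (SD, n = 3), with overlap (exact permutation p = 0.2, the same adjusted).

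**Figure D3:**
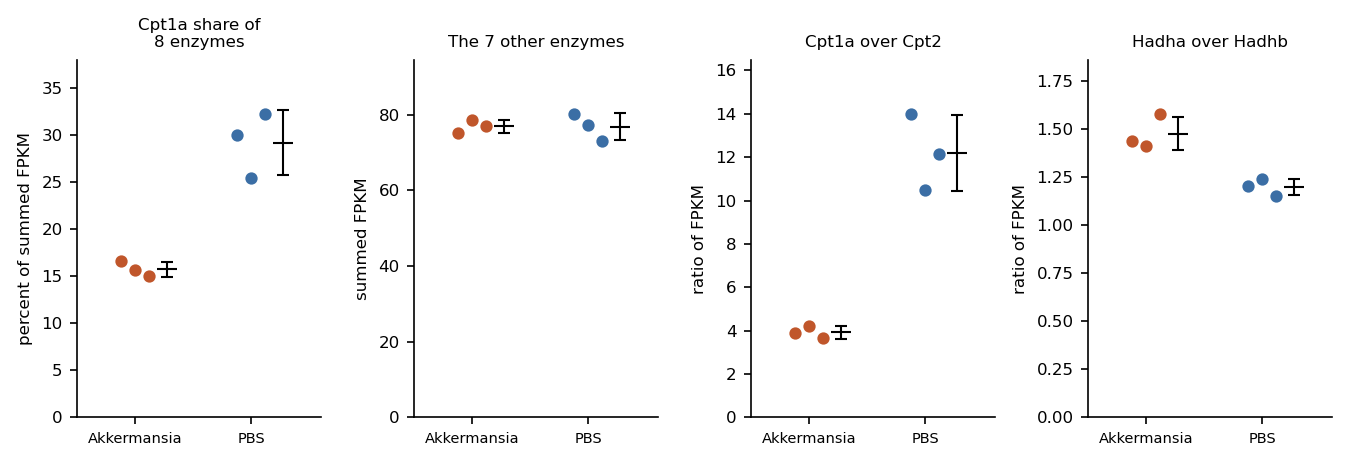
From left to right, the panels show the percent of the 8 enzymes' summed FPKM that is Cpt1a, the summed FPKM of the other 7 enzymes, and the FPKM ratios Cpt1a over Cpt2 and Hadha over Hadhb, with a point per library and the mean with SD (n = 3 each). The Cpt1a share is 14.99 to 16.6% with Akkermansia and 25.4 to 32.2% with PBS, while the sum of the other enzymes overlaps between groups.

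The other steps of the pathway were read from 8 lists of 91 genes, of which 79 passed the filter on low counts. With Akkermansia 9 of the 79 rose and 6 fell, where 7.32% of all genes tested rose and 8.28% fell. Their median log2 fold change was 0.04. The lists, like the members, were chosen with earlier results of these data known. The remaining 12 genes had between 0 and 20 reads in any library.

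Among other carnitine shuttle genes, 1 of 4 tested fell and none rose in the edgeR test, also at an unadjusted p under 0.05, where 2 fell. By the adjusted p, 8.28% of all genes tested fell. Slc25a20, the carnitine-acylcarnitine carrier that works between Cpt1a and Cpt2, measured 22.7, 21.7 and 18.7 CPM with Akkermansia, against 33.9, 28.3 and 28.1 CPM with PBS. The groups did not overlap, and the log2 fold change was -0.52 ± 0.12 (SE, edgeR adjusted p = 0.0108). Its call was lost without Akkermansia 3 (adjusted p = 0.0608, the highest of 15 settings). The list's count of falls was 2 with DESeq2, with no filter on low counts and without PBS 2, and 0 without Akkermansia 3. Slc22a5, the plasma membrane carnitine transporter, did not pass (log2 fold change -0.46, edgeR adjusted p = 0.0981), and PBS 2, at 34.0 CPM, lay within the Akkermansia range of 31.7 to 35.5 CPM. Crot, the peroxisomal carnitine octanoyltransferase, had a log2 fold change of 0.03 (edgeR adjusted p = 0.843). Of the other CPT1 isoforms, Cpt1b, that of muscle, averaged 0.317 FPKM with Akkermansia and 0.183 FPKM with PBS, without passing the edgeR test (adjusted p = 0.291), and Cpt1c, that of brain, had 1 to 5 reads per library and was not tested.

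Of 13 other mitochondrial beta-oxidation enzymes and 3 electron transfer flavoprotein genes, none passed the test in either direction, by edgeR, DESeq2 or limma-voom. Over all genes tested, 15.6% passed by edgeR. At an unadjusted p under 0.05 there were also 0 higher and 0 lower in both lists. Log2 fold changes ran from -0.18 (Acaa2, the thiolase of medium chains) to 0.24 (Acad11) in the first list and from -0.21 to -0.06 in the second. Peroxisomal oxidation had 1 fall in 15 tested genes and no rise, where 8.28% of all genes tested fell and 7.32% rose. At an unadjusted p under 0.05 by edgeR, 2 of the 15 were higher and 2 lower. The fall was in Phyh, the phytanoyl-CoA hydroxylase of branched chains, which had a log2 fold change of -0.41 (24.5 ± 1.42 CPM with Akkermansia against 32.5 ± 5.17 CPM with PBS, SD, n = 3, edgeR adjusted p = 0.0388). It lost its call in 8 of 15 settings (adjusted p up to 0.147).

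Fatty acid uptake and activation showed 1 rise and 1 fall in 11 tested genes, where 7.32% of all genes tested rose and 8.28% fell. Slc27a4, a fatty acid transporter with acyl-CoA synthetase activity, rose to 32.3 ± 2.69 CPM with Akkermansia, against 20.6 ± 3.09 CPM with PBS (SD, n = 3, log2 fold change 0.65, edgeR adjusted p = 0.00427). Fabp5, a cytosolic fatty acid-binding protein, measured 4.71 ± 0.801 CPM with Akkermansia against 7.56 ± 1.14 CPM with PBS (SD, n = 3, log2 fold change -0.68, edgeR adjusted p = 0.0431), a fall that was not called in 8 of 15 settings (adjusted p up to 0.161). The most abundant acyl-CoA synthetase genes in CPM, Acsl5 and Acsl4, had log2 fold changes of 0.08 and -0.07 without passing.

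Lipolysis and lipid droplet genes rose in 2 of 7 cases, where 7.32% of all genes tested rose. Plin3, a lipid droplet coat protein, measured 34.7, 31.8 and 35.8 CPM with Akkermansia, against 21.3, 20.2 and 22.7 CPM with PBS (log2 fold change 0.67 ± 0.10, SE, edgeR adjusted p = 0.00096). Lipa, the lysosomal acid lipase, had a log2 fold change of 0.25 (edgeR adjusted p = 0.0416) and was not called in 7 of 15 settings (adjusted p up to 0.172). Among other PPAR targets, 1 of 5 tested rose and 1 fell, where 7.32% of all genes tested rose and 8.28% fell. Plin2, another droplet coat protein, rose by 0.57 on the log2 scale (20.9 ± 1.72 CPM with Akkermansia against 14.1 ± 2.17 CPM with PBS, SD, n = 3, edgeR adjusted p = 0.0149), a call lost without Akkermansia 1 or PBS 1 (adjusted p = 0.0709 and 0.0586). Acot2, a mitochondrial acyl-CoA thioesterase, measured 37.1, 33.2 and 33.8 CPM with Akkermansia, against 66.6, 44.5 and 64.2 CPM with PBS (log2 fold change -0.75 ± 0.14, SE, edgeR adjusted p = 0.00561). Acot1 is a close copy of Acot2, with 2 to 7 reads per library with Akkermansia and 8 to 20 with PBS, and how reads were divided between them is not known. Acot2 was lowest in PBS 2 among the PBS libraries, the library that stood apart on the second principal component of all tested genes. Without PBS 2 the log2 fold change of Acot2 was -0.91 (edgeR adjusted p = 1.7e-05). Over all 6 fits without 1 library it ran from -0.91 to -0.65, with edgeR adjusted p up to 0.0373. Pdk4, a sensitive PPAR target in muscle and liver, had 0 to 2 reads in any library, under the floor of 3 reads (0.181 to 0.200 CPM).

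Of 21 regulators tested, 5 rose and 2 fell with Akkermansia, where 7.32% of all genes tested rose and 8.28% fell. Nrip1, a corepressor of nuclear receptors, measured 162 ± 9.71 CPM with Akkermansia against 240 ± 49.7 CPM with PBS (SD, n = 3, log2 fold change -0.57, edgeR adjusted p = 0.0262). Sirt1, a deacetylase that acts on PGC-1 alpha, measured 73.4 ± 6.41 CPM with Akkermansia against 102 ± 5.84 CPM with PBS (SD, n = 3, log2 fold change -0.48, edgeR adjusted p = 0.00203). The rises included Prkaa1, the catalytic alpha 1 subunit of AMPK, Acaca, which makes malonyl-CoA, and Tfeb, a regulator of lysosomal genes. Their log2 fold changes were 0.29, 0.37 and 0.38 (edgeR adjusted p = 0.0202, 0.0286 and 0.0329). Ncor1, a nuclear receptor corepressor, also rose and was named after its value was seen (log2 fold change 0.28, edgeR adjusted p = 0.0427). Of the regulators named here, Sirt1 kept its call in all 15 other settings, and Nrip1, Prkaa1, Acaca, Tfeb and Ncor1 were called in 8 to 12 of them (adjusted p up to 0.174). Without any 1 of the Akkermansia libraries or without PBS 1, as on both log2 FPKM scales, 1 regulator was called higher.

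Of the PPAR family itself, Ppara had 1 read in 1 Akkermansia library and none elsewhere, and Pparg had 3.33 ± 1.53 CPM with Akkermansia against 3.34 ± 0.524 CPM with PBS (SD, n = 3, edgeR adjusted p = 0.999). Ppargc1a, which encodes PGC-1 alpha, had 2 to 13 reads per library and was not tested.

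**Figure D4:**
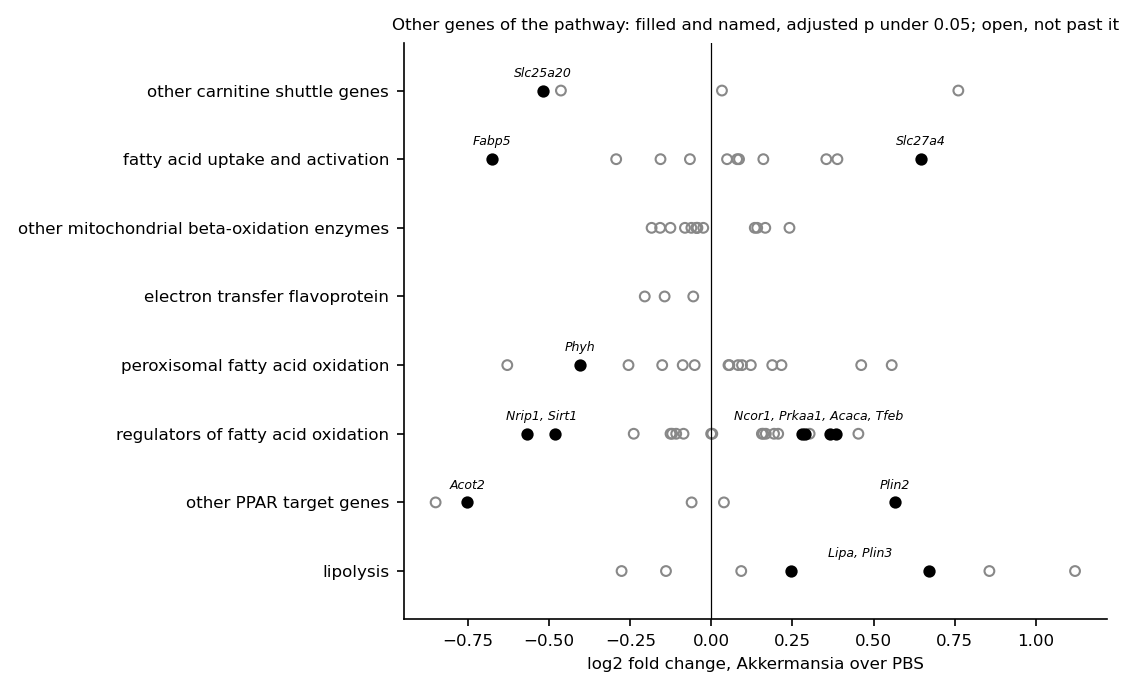
Points are tested genes of the 8 other pathway lists, all but 1 of them shown, each at its log2 fold change, Akkermansia over PBS; filled points with names passed the edgeR test at an adjusted p under 0.05. The mitochondrial enzymes and flavoprotein genes lie between -0.21 and 0.24 with no filled point, while named genes of other lists lie on both sides of 0.

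The profile of Cpt1a over the 6 libraries was compared with that of 8493 other named genes with a mean of at least 10 CPM. Genes known only by predicted, clone or identifier names were left out. The measure was the root mean square difference of log2 CPM centred on each gene's mean. Nearest were Snx18, a sorting nexin (0.0760), Mir17hg, the host transcript of the miR-17 cluster (0.0805), Dusp5, an ERK phosphatase (0.0834), Crem, a cAMP-responsive transcription factor (0.0963), and Spty2d1, a histone chaperone (0.0984). Snx18, for one, measured 63.2, 63.1 and 59.4 CPM with Akkermansia, against 156, 116 and 134 CPM with PBS. All 5 had non-overlapping groups, log2 fold changes from -1.34 to -1.07, and their lowest PBS value in PBS 2. That library stood apart on the second principal component of all tested genes. The measure rests on libraries of 2 groups, so any gene with a difference of like size between groups comes close. These genes were chosen for likeness to Cpt1a, so traits shared with it, among them the low PBS 2, are no separate result. Of the members, Hadhb came nearest, as number 892 at 0.444. Hadha, Acadl, Acadvl, Acadm, Crat and Ppard lay at 0.555 to 0.680, and Cpt2, at 0.823, had too low a mean to be ranked.

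**Figure D5:**
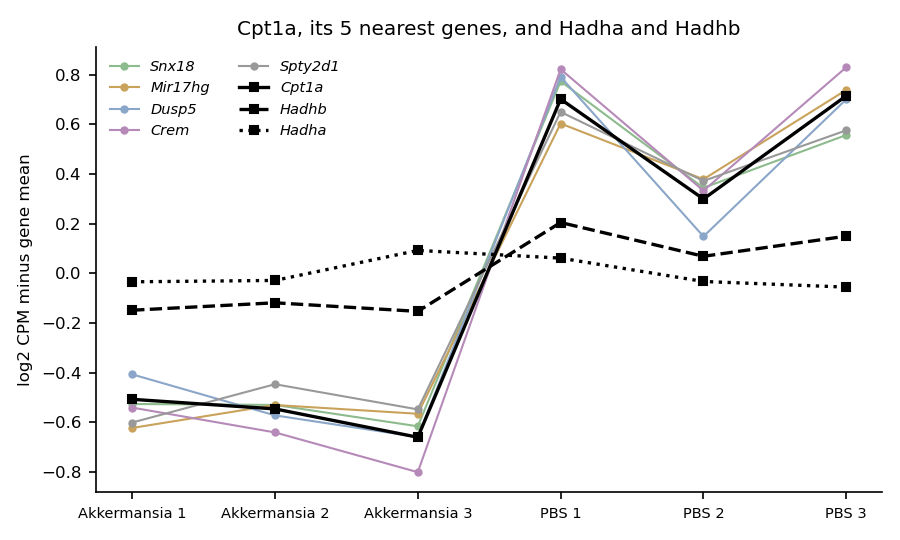
Lines join each gene's log2 CPM, minus its mean, over the 3 Akkermansia and 3 PBS libraries, for Cpt1a (solid black), its 5 nearest genes (colours), Hadhb (dashed) and Hadha (dotted). Cpt1a and the nearest genes lie together below 0 with Akkermansia and above 0 with PBS, lowest in PBS 2 among the PBS libraries, while Hadhb moves less and Hadha stays near 0.

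Markers of other cells moved between the same groups, where 7.32% of all genes tested were called higher and 8.28% lower. All 10 B cell markers were higher with Akkermansia, with summed levels of 409.5 to 556 CPM with Akkermansia against 188 to 217 CPM with PBS. Both CD8 T cell markers were higher, with sums of 61.3 to 93.4 CPM with Akkermansia against 19.1 to 20.2 CPM with PBS. Of the NK cell markers 4 of 6 were higher (57.0 to 66.2 CPM with Akkermansia, 37.5 to 43.3 CPM with PBS), and of the dendritic cell markers 3 of 6 (34.8 to 39.7 CPM with Akkermansia, 15.1 to 22.3 CPM with PBS). One of 6 tested neutrophil markers and 1 of 7 macrophage markers were higher, and none of 7 erythroid markers passed. Sums were 74.2 to 164 CPM with Akkermansia against 13.3 to 55.6 CPM with PBS for neutrophils, and 440 to 473 CPM with Akkermansia against 344 to 419 CPM with PBS for macrophages. Erythroid sums were 214 to 373 CPM with Akkermansia against 415 to 963 CPM with PBS. The neutrophil genes Mpo and Elane were at 0 in PBS 2, and Mpo also in PBS 3. No other marker was at 0 in any library. The part of these cells in the levels of Cpt1a, Hadhb and the other genes named was not tested.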

How the data were processed

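RNA was measured in 6 poly(A)-selected libraries with 1 batch label, per the labels' protocols. The authors deposited raw counts per gene and FPKM values rounded to 2 decimals. Per the submitters' processing notes, the genome was GRCm39. The sources used here name no aligner, counting program, annotation or strand setting, so antisense or overlapping reads cannot be separated. Groups and replicate numbers came from the sample titles.

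Counts were tested with edgeR 4.0.16 (R 4.3.3): filterByExpr (minimum count 10, total 15), TMM scaling, and the robust quasi-likelihood F test without covariates, adjusted by Benjamini-Hochberg over 15138 genes, threshold 0.05. CPM are counts over TMM-scaled library sizes; log2 CPM used a prior count of 2. The SE is the log2 fold change over the square root of F. Ratios of FPKM were compared by exact permutation (scipy 1.17.1). The fit was also run on counts simulated with the same spread for each gene in both groups. These simulated counts did not cover the unequal spread of the Akkermansia and PBS libraries. Alternatives used DESeq2 1.42.0, limma 3.58.1 (voom, and trend on log2 FPKM), other filters and scalings, a block for replicate number, and fits that dropped 1 library at a time. In 5248 highly counted genes, FPKM followed counts over a fixed length within 0.613%. Within groups, library pairs varied 4.53 to 20.3 times as much as sampling alone gives, so no pair agreed within sampling noise and each library was counted once.

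Members and lists were chosen with earlier results of these data known. Named were all members, up to 4 called genes per list and direction by smallest p, and the 5 genes nearest to Cpt1a; untested genes are named where their low counts are given, and other names were chosen after their values were seen. One regulator that the rule names is counted but not reported here. Sequences are from RefSeq promoter windows, GRCm38.p6. Counting error alone sets the floor of 3 reads.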

Additional observations from a re-analysis of the deposited data

How the results depend on the processing

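The log2 fold change of Cpt1a stayed between -1.28 and -1.08 in all 15 alternatives and was called in each. Leaving out 1 library at a time gave 1 to 2 members lower, 0 to 1 higher, 3 to 9 other pathway genes higher, 2 to 8 lower, and 1142 to 2560 genes called in all, against 2361 with all libraries. The 4 lowest counts of genes called, 1402, 1142, 1173 and 1473, came without Akkermansia 1, Akkermansia 2, Akkermansia 3 and PBS 1. Without PBS 2 or PBS 3, also fits with fewer libraries, 2560 and 2530 genes were called. The cause of these differences was not tested. On log2(FPKM + 1) and log2(FPKM + 0.1) alike, 1 member (Cpt2) was called higher, and 4 other pathway genes were higher and 3 lower; the cause was not tested. Signs that turned belonged to values near 0: Crat without Akkermansia 2 (0.014) or PBS 3 (0.0020), and Hadha without Akkermansia 3 (-0.021) or PBS 3 (-0.0036); over all fits without 1 library Crat ran from -0.12 to 0.014 and Hadha from -0.021 to 0.047. With the replicate block 2538 genes were called and Cpt1a was at -1.14, and no count for members or pathway lists moved. Same-numbered libraries deviated together weakly (correlations across genes of 0.085, 0.077 and 0.030), although each correlated best with its own number, so the numbers were not taken to pair the mice. Scaling by size factors or library totals moved the median of all genes by under 0.1 (log2). Ppara, Pdk4, Cpt1c and Ppargc1a had too few reads to test at this depth, and the cause of their low counts was not tested.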
